A study of Bos grunniens with 18 samples.

Results

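The spliceosome genes are the 178 entries of the deposited gene table, of 20607 in all, that the KEGG column assigns to the spliceosome pathway, that reached 10 counts in at least 6 of the 18 libraries, and that are not *HSPA8*, which was left out by name. Of the 203 entries that carry the pathway number, 24 were under the count rule. All 178 members passed the low-count filter of the differential expression test, which covered 14508 genes, and 167 of them reached 10 counts in all 18 libraries. The libraries were made from whole blood of female yaks (*Bos grunniens*) 4 to 8 years old, drawn in anestrus (Y-A group), in estrus (Y-E group) and in pregnancy (Y-P group), 6 libraries per group. The same cows were followed through the stages, and the p-values below treat the libraries as separate samples unless a replicate block is named. Estrus had been synchronised with a progesterone pessary, cloprostenol and GnRH and was followed by artificial insemination, so that Y-E is a hormonally induced estrus and Y-P a pregnancy after that programme. Blood went straight into EDTA tubes and TRIzol LS, and libraries were made from poly(A) RNA. Whole blood mixes red cell precursors, granulocytes, monocytes, lymphocytes and platelets, so fewer cells of a type and less RNA per cell cannot be told apart in any value below.

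The spliceosome removes introns from pre-mRNA. U1 snRNP binds the start of the intron, U2 snRNP with its SF3A and SF3B subunits binds the branch site, and the U4/U6.U5 tri-snRNP joins before helicases and the Prp19 complex remodel the assembly into its catalytic form. SR proteins bind exons and recruit U1 and U2, whereas hnRNP proteins often act against them, and the exon junction and export factors are loaded on the spliced mRNA. Blood leukocytes use all of this machinery, and reticulocytes, which have lost their nucleus, carry leftover mRNA, mostly of globin.

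By role, all but 75 members were placed in 12 lists written from general knowledge. The 52 members left without a symbol were placed in none, so a list need not hold every subunit of its complex. The lists hold 6 genes of U1 snRNP, 8 of U2 snRNP, 10 related to U2, 16 of U4/U6 and U5, 4 Sm proteins, 4 LSm proteins, 16 of the Prp19 complex and its associates, 8 step helicases and second-step factors, 12 SR proteins, 7 hnRNP proteins, 9 of the exon junction, export and cap binding complexes, and 3 HSP70 proteins. Of the 75 others, 49 share an orthology group of the table with a listed member, among them copies without a symbol and genes that are not known as splicing factors, such as *RETREG2*, *RETREG3* and *FAM134B*, which the table puts with *PRPF6*. By type, 169 members are protein coding, 7 are pseudogenes and 2 are miRNA entries. On the genome, 55 members overlap another entry, 26 of them on the same strand, and 94 share their orthology group with another member, the largest group having 11. Counts of such entries can be split or shared between them.

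Sequencing depth was 30247267 to 48401076 counts per library. Levels are given as CPM (counts scaled to a common library total) after TMM normalization, and FPKM, which is per length, is used wherever levels of different genes are compared. The highest mean FPKM over all libraries was that of *DDX5* (468), an RNA helicase, followed among the leaders of each role by *HNRNPK* (353), *SF3B1* (320), the branch site binding subunit of U2, *DDX39B* (171), *SRSF3* (165), *BUD31* (107), *PRPF8* (106), the scaffold of the catalytic core, *U2AF2* (87.7), which reads the polypyrimidine tract, *SNRPB* (66.5), *SNRNP70* (42.5), *LSM4* (29.9) and *HSPA2* (6.90). Outside the roles, the miRNA entry ENSBGRG00000010782 had the highest mean FPKM, 247. It spans only 84 bases, so that few counts give a high value per length. It also lies inside *DDX5* on the same strand, and its reads cannot be told from those of *DDX5*. The median member had a mean FPKM of 24.6, against 7.78 for all genes tested. The members' median coefficient of variation within a stage was 17.5%, against 24.0%. *DDX5* and *SF3B1* took 8.63% and 8.40% of the counts of all members.

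In every Y-P library the members took a larger share of all counts than in any library of the other stages. The share was 1.66% to 2.05% in Y-A (median 2.01%), 1.68% to 2.11% in Y-E (median 1.82%) and 2.26% to 2.38% in Y-P (median 2.33%). The ratio of the mean shares was 1.28 for Y-P vs. Y-E and 1.16 for Y-P vs. Y-A, and 0.906 for Y-E vs. Y-A, where the libraries overlap. The hemoglobin share of all counts was 3.10% to 16.7% in Y-A, 0.0899% to 8.36% in Y-E, where replicate 6 held the highest value, and 0.0272% to 0.376% in Y-P. With these genes left out, the members took 1.89% to 2.19% in Y-A, 1.68% to 2.11% in Y-E and 2.26% to 2.38% in Y-P, and the Y-P libraries still stood above the rest. These shares carry no TMM scaling. With library size alone, the median log2 fold change over all genes was 0.19 (Y-P vs. Y-A) and 0.18 (Y-P vs. Y-E). That of the members was 0.26 and 0.30, so the median gene stood higher in Y-P as well.

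Other features of the samples moved with the stages. The hemoglobin share is given above, and the 3 tested reticulocyte markers (of 8 listed) summed to 392 to 10425 CPM in Y-A, 90.4 to 4445 in Y-E and 39.0 to 121 in Y-P. The 6 tested neutrophil markers (of 8 listed) summed to 3663 to 5958 CPM in Y-A, 5045 to 9499 in Y-E and 2961 to 4137 in Y-P, so that no Y-P library reached the lowest Y-E library, and *MGAM*, *S100A9*, *CSF3R* and *MMP9* were lower in Y-P vs. Y-E. The 4 tested T cell markers (of 7 listed) summed to 705 to 880 CPM in Y-A, 693 to 889 in Y-E and 806 to 1416 in Y-P, where *CD3G* was called higher in both comparisons and *LCK* in Y-P vs. Y-E. The 2 tested platelet markers (of 5) summed to 140 to 196 CPM in Y-P, under the 228 to 368 of the other stages, and *TUBB1* was lower in both comparisons with Y-P. Monocyte markers (5 of 6 tested) gave 340 to 637 CPM in Y-P and 452 to 870 in Y-E, with *CD68* lower in Y-P vs. Y-E, B cell markers (5 of 5) gave 511 to 1762 and 368 to 1283, and NK cell markers (4 of 5) gave 189 to 299 and 122 to 300, with *KLRK1* higher. No tested marker was at or under 3 counts in all libraries. The part of cell composition in the results below was not tested.

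Depth also moved with the members inside Y-P. After TMM normalization, a library's deviation was taken as the median over the members of log2 CPM minus the gene's mean over all libraries. In the 3 Y-P libraries with the most counts (replicates 2, 3 and 5, hereafter the deeper set) this deviation was 0.20, 0.25 and 0.19, while in replicates 1, 4 and 6 it was −0.04, −0.05 and −0.03. Y-A replicate 1 and Y-E replicate 6, the deepest libraries of their stages, stood at −0.02 and −0.16. Member by member, the deeper set lay above the other 3 Y-P libraries in 64 members and below them in 10, and the sets overlapped in the other 104. The median deviation over all genes tested, which TMM normalization holds near 0, was 0.017 to 0.039 in the deeper set. In the other 3 Y-P libraries it was 0.021 to 0.025. The gene by gene count was not made over all genes, so how common such a split is outside the members cannot be told. All 6 libraries had a share of 2.26% or more, and the part of depth in the results was not tested. Counts are given below with either set left out, an alternative chosen after seeing the data.

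**Figure D1:**
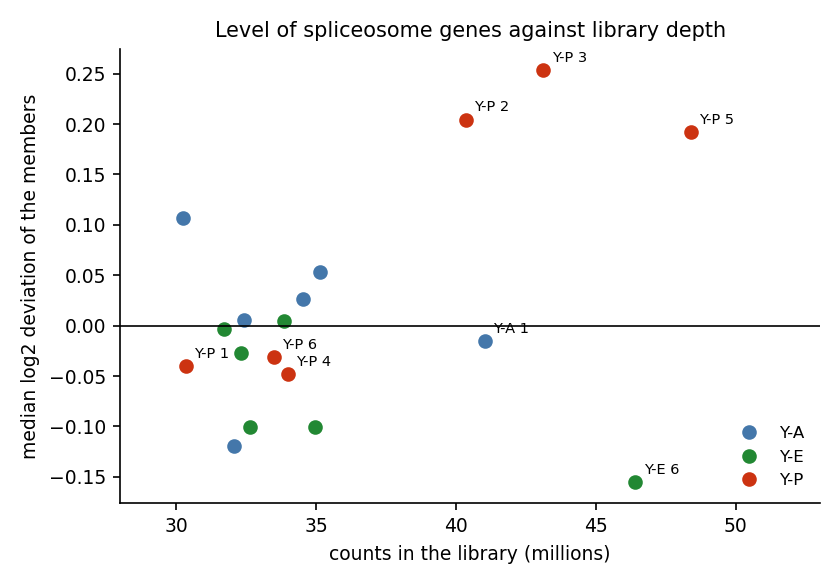
Median log2 deviation of the 178 spliceosome genes from their mean over all libraries, after TMM normalization (y axis), against the total counts of the library (x axis, scaled as labelled), with 1 point per library coloured by stage. Y-P replicates 2, 3 and 5 lie at 0.19 to 0.25, and the other Y-P libraries at −0.05 to −0.03.

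The Y-E vs. Y-A group sets the induced estrus beside anestrus. The stages were drawn at different times, and Y-E followed the hormone programme, so estrus, time and treatment cannot be told apart. With edgeR's quasi-likelihood test and Benjamini-Hochberg adjustment over all 14508 genes, 0 members fell below the threshold of 0.05, where 0.0207% of all genes did, and DESeq2 called 0 as well. At an unadjusted p under 0.05 there were 9 members, 3 higher and 6 lower, against 6.20% of all genes. The smallest adjusted p of a member was 0.439. The median log2 fold change of the members was −0.07, against −0.01 over all genes tested, and 28.7% of the members had a fold change above 0, against 48.3% of all genes. The members with the smallest p on the lower side were *PRPF3*, a U4/U6 protein, with a log2 fold change of −0.31 ± 0.10 (SE), *SRSF7* with −0.37 ± 0.12 and *THOC1* with −0.35 ± 0.13. Those on the higher side were *FHL3*, a LIM domain protein, with 0.61 ± 0.21, *CHERP* with 0.37 ± 0.13 and *WDR25* with 0.45 ± 0.16. None of these 6 passed, and their stages overlapped in the CPM of single libraries. For *PRPF3* the Y-A libraries ran from 106 to 132 CPM (median 115) and the Y-E libraries from 80.3 to 114 (median 93.7).

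Between Y-P and Y-A, 12 of the 178 members passed (6.74%, against 5.83% of all genes), 9 of them higher and 3 lower in Y-P. The 9 higher members are 5.06% of the list, where 2.22% of all genes were higher, and the 3 lower are 1.69%, where 3.61% were lower. With the fold threshold of the study (absolute log2 fold change of at least 1) 2 members were called, *PRPF40B* and *HSPA6*, against 1.43% of all genes. Between Y-P and Y-E, 31 passed (17.4%, against 14.4%), 28 of them higher (15.7%, against 5.77%) and 3 lower (1.69%, against 8.68%). With the fold threshold only *PRPF40B* was called (against 2.67%). DESeq2 called 17 members in Y-P vs. Y-A (9.55%, against 10.3% of all genes) and 44 in Y-P vs. Y-E (24.7%, against 19.0%). In Y-P vs. Y-A its share of members was thus below that of all genes. Both comparisons use the same Y-P libraries, so their calls are not independent. In all, 33 members were called in at least 1 of them, 10 in both and 145 in none. The median log2 fold change of the members was 0.11 in Y-P vs. Y-A (0.03 over all genes) and 0.15 in Y-P vs. Y-E (0.04 over all genes). A fold change above 0 was found in 63.5% of the members in Y-P vs. Y-A (53.5% of all genes). In Y-P vs. Y-E it was 73.0% (53.7% of all genes). The called members had a median absolute log2 fold change of 0.61 and 0.46.

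These counts rest on which libraries enter. Without the deeper set, 4 members passed in Y-P vs. Y-A (2.02% of all genes did) and 14 in Y-P vs. Y-E (7.34% of all genes), and the members' medians were −0.063 and −0.0062. Without the other 3 Y-P libraries, 36 passed (11.6% of all genes) and 52 (17.4% of all genes), with medians of 0.21 and 0.28. Of the 12 calls, 3 were kept without the deeper set (*PRPF40B*, *SNRNP70* and *SRSF2*), and of the 31, 10 were kept (these 3, *SRSF3*, *SRSF5*, *SRSF6*, *SNRPA*, *DDX46*, *THOC1* and *FAM134B*). Leaving out 1 library at a time gave 5 to 18 calls in Y-P vs. Y-A and 18 to 41 in Y-P vs. Y-E. The count in Y-P vs. Y-A was 7 when Y-P replicate 4 or Y-A replicate 1, 5 or 6 was left out (3.11% to 4.01% of all genes), and 5 when it was Y-P replicate 2 (2.63% of all genes), and the count in Y-P vs. Y-E was 18 and 20 without Y-E replicates 2 and 3 (9.72% and 9.75% of all genes). The highest counts, 18 and 41, came without Y-P replicate 1, where 7.36% and 14.7% of all genes were called. In these fits 5 of the 12 calls and 16 of the 31 were never lost. Scaled by library size alone, 33 members passed in Y-P vs. Y-A (31 higher, 2 lower) and 56 in Y-P vs. Y-E (54 higher, 2 lower), with 9.19% and 17.6% of all genes called. The median of all genes then moved to 0.19 and 0.18, and that of the members to 0.26 and 0.30.

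**Figure D2:**
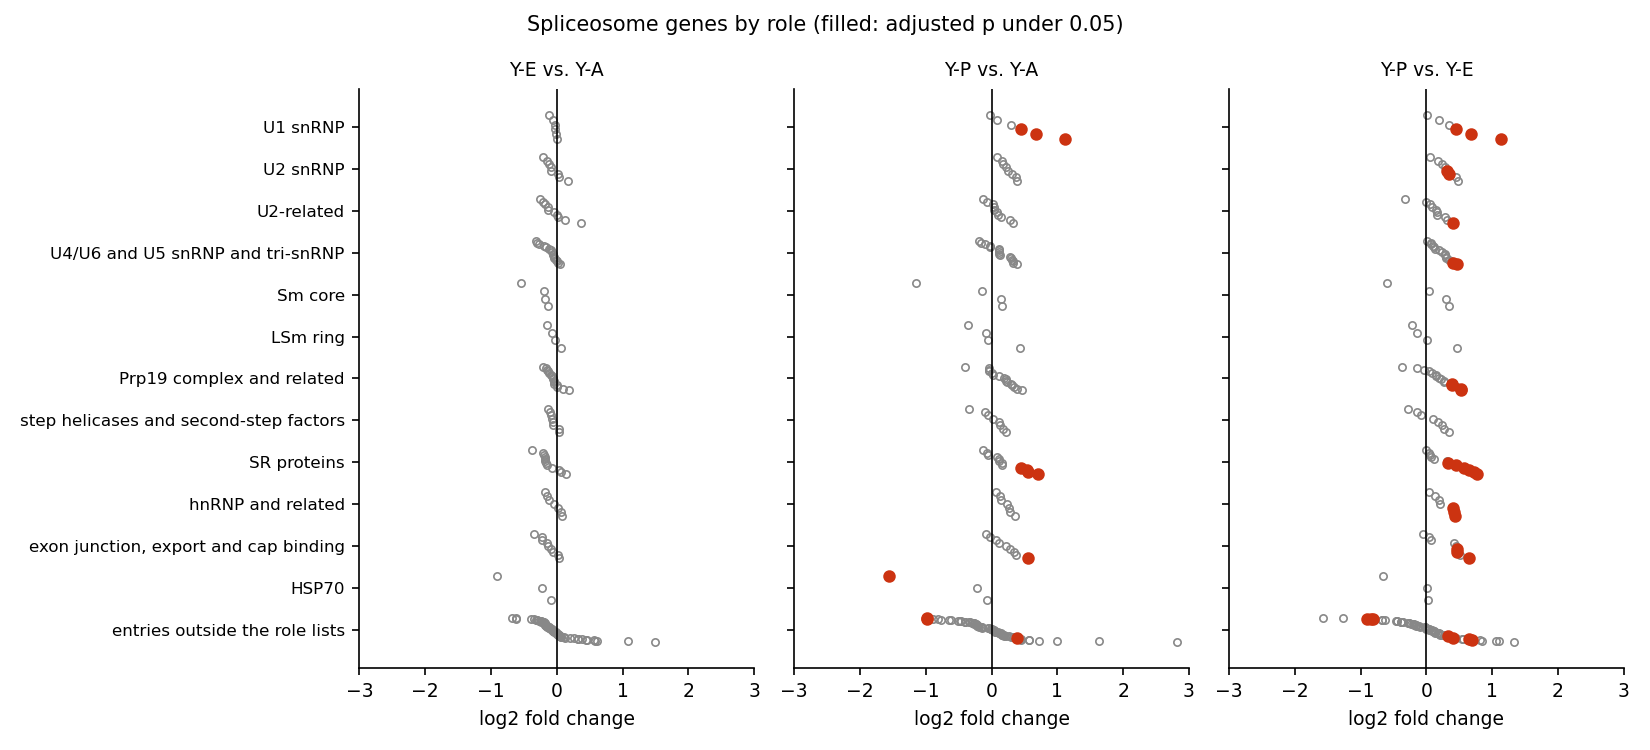
Log2 fold change (x axis) of each of the 178 spliceosome genes (points) by role (y axis) in the 3 comparisons, with members at an adjusted p under 0.05 filled in red. No member is filled in Y-E vs. Y-A, 12 are in Y-P vs. Y-A and 31 in Y-P vs. Y-E, with 6 of the 12 SR proteins and 3 of the 6 U1 genes among the latter. Of all genes tested, 5.77% were higher and 8.68% lower in Y-P vs. Y-E.

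Among the SR proteins, 4 of 12 were higher in Y-P vs. Y-A and 6 of 12 in Y-P vs. Y-E, and none was lower. Of all genes tested, 2.22% were higher and 3.61% lower in Y-P vs. Y-A, and 5.77% and 8.68% in Y-P vs. Y-E. The same shares stand beside the counts of every other role below. The roles are small and were not tested as sets. *SRSF3* (chromosome 24, 25814349 to 25818965, minus strand, in the coordinates of the deposited table), a shuttling SR protein that also takes part in mRNA export, ran from 116 to 152 CPM in Y-A (median 140), 90.5 to 137 in Y-E (median 117) and 171 to 244 in Y-P (median 198). Every Y-P library was above every other library. The level was 1.46-fold that of Y-A (log2 0.55 ± 0.12, adjusted p = 0.0128, edgeR) and 1.70-fold that of Y-E (0.77 ± 0.12, adjusted p = 0.000581, edgeR). *SRSF6* (chromosome 12, 67373686 to 67379562, plus strand) ran from 207 to 262 CPM in Y-A (median 237), 170 to 262 in Y-E (median 200) and 273 to 378 in Y-P (median 348). Again no Y-P library overlapped with the rest. The log2 fold change was 0.54 ± 0.11 against Y-A (adjusted p = 0.00911, edgeR) and 0.72 ± 0.11 against Y-E (adjusted p = 0.000556, edgeR).

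*SRSF5* (chromosome 11, 71539842 to 71546202, plus strand) ran from 165 to 225 CPM in Y-A (median 199), 150 to 203 in Y-E (median 169) and 231 to 349 in Y-P (median 251), with all Y-P libraries above the others. Its log2 fold change was 0.64 ± 0.12 against Y-E (adjusted p = 0.00199, edgeR) and 0.45 ± 0.12 against Y-A (adjusted p = 0.0332, edgeR). The latter call was lost in 7 of the 18 fits that left out 1 library (Y-A replicates 1, 2, 4 and 6 and Y-P replicates 2, 4 and 6), with an adjusted p of up to 0.0841. *SRSF2* (chromosome 19, 9617951 to 9619970, minus strand), the SR protein also known as SC35, ran from 69.6 to 155 CPM in Y-A, 93.2 to 156 in Y-E and 120 to 218 in Y-P, and here the stages overlap. Its log2 fold change was 0.71 ± 0.18 against Y-A (adjusted p = 0.0267, edgeR) and 0.58 ± 0.18 against Y-E (adjusted p = 0.0346, edgeR). These calls were lost in 3 and 8 of the 18 fits without 1 library, with an adjusted p of up to 0.0586 and 0.0843. *SRSF7* and *TRA2B*, an exonic enhancer binding protein, were called only against Y-E, with log2 fold changes of 0.45 ± 0.12 and 0.33 ± 0.10, and 0.08 ± 0.12 and 0.17 ± 0.10 against Y-A. The *TRA2B* call was lost in 6 of the 18 fits.

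The other SR proteins did not pass. *SRSF10* gave 0.31 ± 0.12 against Y-E (adjusted p = 0.0838, edgeR), beside the 0.33 of *TRA2B*, and 11 of the 12 SR fold changes against Y-E were above 0. In Y-P vs. Y-A the log2 fold change of *SRSF1*, the founding SR protein, was −0.13 ± 0.11, that of *SRSF4* 0.11 ± 0.12, of *SRSF9* 0.11 ± 0.12, of *SRSF10* 0.17 ± 0.12, of *TRA2A* −0.06 ± 0.09 and of *RBM25* −0.08 ± 0.12. The 12 SR proteins summed to 2249 to 2401 CPM in the deeper set and to 2136 to 2269 CPM in the other 3, all above the 1802 to 2118 of Y-A and the 1512 to 2078 of Y-E. Without the deeper set, *SRSF5*, *SRSF3*, *SRSF6* and *SRSF2* were still called in Y-P vs. Y-E (log2 fold changes of 0.61, 0.63, 0.58 and 0.72), while *SRSF7* and *TRA2B* were not (0.31 and 0.19). In Y-P vs. Y-A only *SRSF2* of the 4 was then called, and the log2 fold changes of *SRSF3*, *SRSF6* and *SRSF5* were 0.41, 0.40 and 0.42.

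Among the U1 genes, 3 of 6 were higher in both comparisons with Y-P. *PRPF40B* (chromosome 5, 77278027 to 77299974, plus strand), a relative of the yeast U1 protein Prp40, ran from 9.97 to 13.7 CPM in Y-A (median 12.4), 7.49 to 15.5 in Y-E (median 12.3) and 19.2 to 38.6 in Y-P (median 25.1). Its Y-P libraries were all above the rest, at 2.16-fold the level of Y-A (log2 1.11 ± 0.19, adjusted p = 0.00438, edgeR) and with a log2 fold change of 1.14 ± 0.19 against Y-E (adjusted p = 0.00111, edgeR). It was called under every alternative that was run, with log2 fold changes from 0.95 to 1.30, and these were 0.97 and 0.99 without Y-P replicate 2, its highest library, so that the fold threshold was then missed. *SNRNP70* (chromosome 20, 59543884 to 59563760, minus strand), which binds U1 snRNA directly, ran from 42.6 to 69.1 CPM in Y-A, 41.1 to 65.2 in Y-E and 65.8 to 112 in Y-P. Its log2 fold change was 0.67 ± 0.15 against both stages (adjusted p = 0.0176 against Y-A and 0.00700 against Y-E, edgeR), and the entry ENSBGRG00000017909 overlaps it on the same strand. *SNRPA* (chromosome 20, 66026498 to 66040092, minus strand), a U1 protein, ran from 37.2 to 56.5 CPM in Y-A, 39.6 to 55.3 in Y-E and 52.4 to 71.0 in Y-P, with log2 fold changes of 0.44 ± 0.12 (adjusted p = 0.0335, edgeR) and 0.45 ± 0.12 (adjusted p = 0.0153, edgeR). Its call against Y-A was lost in 7 of the 18 fits, with an adjusted p of up to 0.0740.

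*SNRPC*, another U1 protein, did not pass in either comparison, with a log2 fold change of 0.29 ± 0.21 in Y-P vs. Y-A. The summed level of the U1 genes was 505 to 549 CPM in the 3 other Y-P libraries and 458 to 530 CPM in the deeper set, against 399 to 458 CPM in Y-A and 385 to 478 CPM in Y-E, so that the deeper set overlaps with Y-E. *PRPF40B* and *SNRNP70* were called in both comparisons without the deeper set, with log2 fold changes of 0.95 and 0.72 against Y-A.

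**Figure D3:**
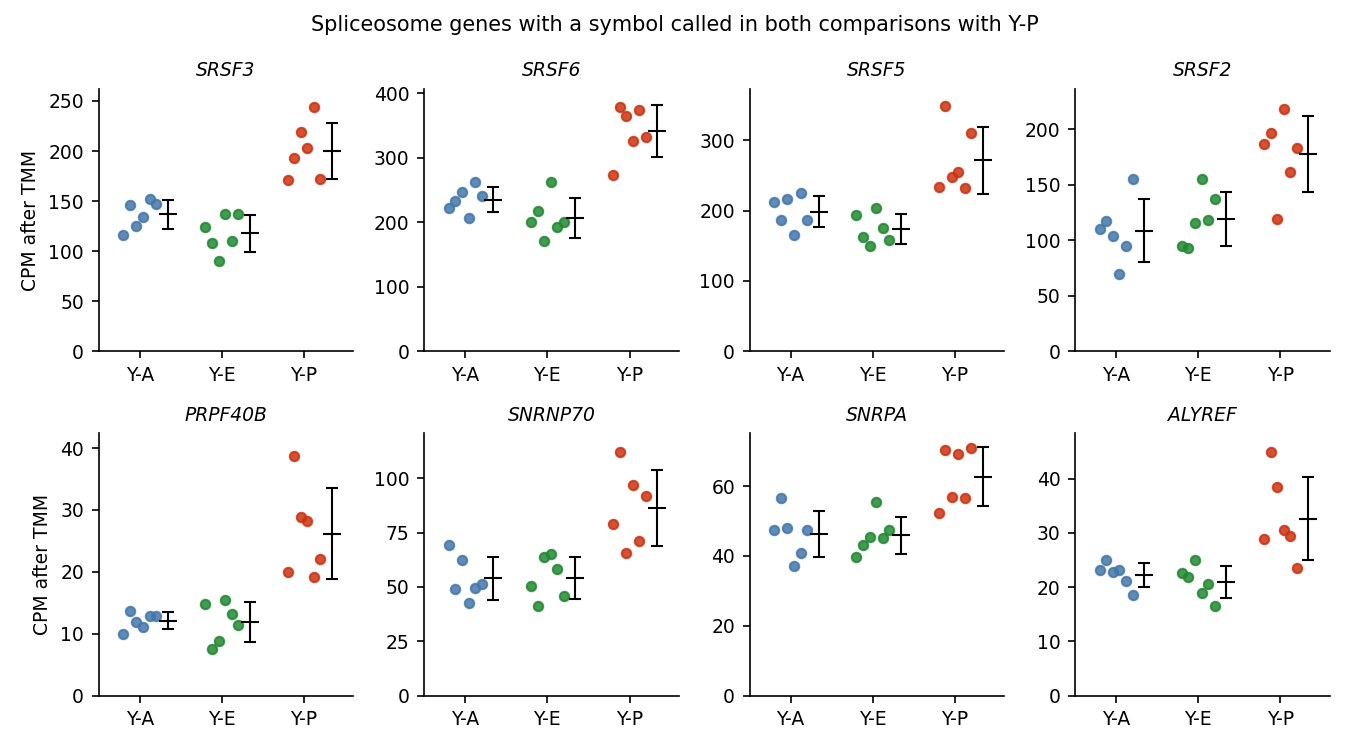
CPM after TMM normalization (y axes, from 0) of the 8 spliceosome genes with a symbol that were called in both comparisons with Y-P, for each library (points) of Y-A, Y-E and Y-P, with the mean and SD (black bars). For *SRSF3*, *SRSF6*, *SRSF5* and *PRPF40B* every Y-P library lies above all other libraries.

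Complete separation of the libraries was rare. Every Y-P library was above every Y-A library in 4 members (1.23% of all genes did so) and above every Y-E library in 9 (2.19% of all genes), and the 4 were the same in both, namely *SRSF3*, *SRSF5*, *SRSF6* and *PRPF40B*. The other 5 against Y-E were *SNRNP70*, *SF3B3*, *HNRNPA1*, *RBMX* and *DHX16*, the last with an adjusted p of 0.0669 (edgeR). Every Y-P library was below every Y-E library in 1 member (3.84% of all genes), *FHL3*.

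Of the U2 genes, 0 of 8 passed in Y-P vs. Y-A and 2 of 8 in Y-P vs. Y-E. *SF3B3*, a scaffold subunit of SF3B, ran from 196 to 236 CPM in Y-E and 249 to 289 in Y-P without overlap, with a log2 fold change of 0.32 ± 0.08 (adjusted p = 0.0122, edgeR). *SF3A3* gave 0.34 ± 0.11 (adjusted p = 0.0487, edgeR), a call that was lost in 15 of the 18 fits without 1 library and with a block for the replicate number (adjusted p = 0.0591), and its log2 fold change was 0.20 without the deeper set. For *SF3B1*, the most highly expressed of them, the log2 fold change was 0.09 ± 0.12 against Y-A and 0.17 ± 0.12 against Y-E, and its libraries ran from 1393 to 2154 CPM in Y-A and 1563 to 2061 in Y-P. All 8 had a fold change above 0 in both comparisons. Among the 10 genes related to U2, *DDX46*, the helicase known as Prp5 in yeast, was the only one to pass, in Y-P vs. Y-E (0.40 ± 0.10, adjusted p = 0.0150, edgeR). *U2AF2* gave 0.29 ± 0.13 against Y-A.

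In the U4/U6 and U5 list, 2 of 16 passed in Y-P vs. Y-E and 0 in Y-P vs. Y-A, and all 16 fold changes against Y-E were above 0 (0.01 to 0.46 on the log2 scale). *EFTUD2*, the GTPase of U5, ran from 110 to 133 CPM in Y-E and 131 to 201 in Y-P, with a log2 fold change of 0.41 ± 0.10 (adjusted p = 0.0136, edgeR). *PPIH*, a cyclophilin of the tri-snRNP, gave 0.46 ± 0.15 (adjusted p = 0.0413, edgeR), a call lost in 11 of the 18 fits and with a replicate block (adjusted p = 0.0531). Neither was called without the 3 deeper Y-P libraries (log2 0.18 and 0.13). For *PRPF8* the log2 fold change was 0.10 ± 0.09, and for *SNRNP200*, the U5 helicase, 0.06 ± 0.11.

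The Prp19 complex and its associates had 4 of 16 members higher in Y-P vs. Y-E and 0 in Y-P vs. Y-A. These were *PPIL1*, a prolyl isomerase (0.53 ± 0.12, adjusted p = 0.00785, edgeR), *CTNNBL1* (0.53 ± 0.16, adjusted p = 0.0302, edgeR), *XAB2* (0.40 ± 0.12, adjusted p = 0.0317, edgeR) and *CWC15* (0.38 ± 0.12, adjusted p = 0.0399, edgeR). The last 3 calls were lost in 5, 6 and 11 of the 18 fits without 1 library, that of *PPIL1* in none. Without the deeper set none of the 4 was called, with log2 fold changes of 0.30 for *PPIL1*, 0.19 for *CTNNBL1*, 0.14 for *XAB2* and 0.24 for *CWC15*. The summed level of the 16 split the Y-P libraries: 1111 to 1363 CPM in the deeper set and 949 to 1028 in the others, whose values lie within the 946 to 1171 of Y-A. *PRPF19* itself gave 0.27 ± 0.16 and *BUD31* −0.36 ± 0.16 against Y-E. None of the 8 step helicases and second-step factors passed in any comparison. *DDX5* gave 0.22 ± 0.13 against Y-A and 0.35 ± 0.13 against Y-E, *SLU7*, a second-step factor, −0.34 ± 0.14 against Y-A.

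None of the 4 listed Sm and 4 listed LSm genes passed, and they varied more between libraries than between stages. Sm and LSm proteins form the rings around the snRNAs, and the lists need not hold all of them. The 4 LSm genes summed to 22.4 CPM in Y-A replicate 6, 24.0 in Y-E replicate 6 and 23.8, 28.4, 36.2 and 28.8 in Y-P replicates 1, 4, 5 and 6. In the other libraries they summed to 39.3 to 82.5 CPM, with the highest values, 71.6 and 82.5, in Y-P replicates 2 and 3. The 4 Sm genes followed the same order at the top (166 and 184 CPM in Y-P replicates 2 and 3) and were lowest in Y-P replicate 1 (73.6 CPM) and Y-A replicate 6 (74.0 CPM). The highest Y-P library was thus 3.47-fold the lowest for the LSm sum and 2.51-fold for the Sm sum. *LSM7* ran from 2.94 to 19.7 CPM within Y-P and *SNRPB* from 56.2 to 113. *SNRPG*, of the Sm ring, had a mean of 5.43 CPM over the Y-A libraries, against 3.74 for Y-E and 2.46 for Y-P, with a log2 fold change in Y-P vs. Y-A of −1.14 ± 0.48 (adjusted p = 0.157, edgeR). Without the deeper Y-P set, *LSM6* was called lower in both comparisons (log2 −1.09 and −0.94), where it gave −0.36 ± 0.31 and −0.21 ± 0.31 over all libraries.

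Among the hnRNP proteins, 3 of 7 were higher in Y-P vs. Y-E and 0 in Y-P vs. Y-A, with all 7 fold changes above 0 in both. *RBMX*, also known as hnRNP G, ran from 215 to 291 CPM in Y-E and 295 to 384 in Y-P (log2 0.42 ± 0.10, adjusted p = 0.0116, edgeR). *HNRNPA1*, which binds splicing silencers, ran from 598 to 616 in Y-E and 621 to 1053 in Y-P (0.43 ± 0.13, adjusted p = 0.0296, edgeR), and *HNRNPM* from 333 to 426 and 383 to 579 (0.40 ± 0.11, adjusted p = 0.0245, edgeR). The calls of *HNRNPA1* and *HNRNPM* were lost in 7 and 6 of the 18 fits, and without the deeper Y-P set their log2 fold changes were 0.13 and 0.12. *HNRNPK* gave 0.13 ± 0.10.

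In the exon junction, export and cap binding list, 1 of 9 passed in Y-P vs. Y-A and 3 of 9 in Y-P vs. Y-E. *ALYREF* (chromosome 19, 14132769 to 14136264, minus strand), the export adaptor, ran from 18.6 to 25.1 CPM in Y-A, 16.5 to 25.0 in Y-E and 23.5 to 45.0 in Y-P. It was called in both, with log2 fold changes of 0.55 ± 0.14 (adjusted p = 0.0320, edgeR) and 0.64 ± 0.14 (adjusted p = 0.00621, edgeR), and the first call was lost in 7 of the 18 fits, with an adjusted p of up to 0.0954. Without the deeper set neither call of *ALYREF* was made (log2 0.31 and 0.40, adjusted p = 0.236 and 0.0847, edgeR). *DDX39B*, a helicase of spliceosome assembly and of the TREX export complex, ran from 233 to 316 CPM in Y-E and 294 to 460 in Y-P (0.46 ± 0.12, adjusted p = 0.0175, edgeR). *THOC1*, of the same complex, gave 0.46 ± 0.13 (adjusted p = 0.0270, edgeR), lost in 4 of the 18 fits. The exon junction helicase *EIF4A3* gave 0.43 ± 0.15 (adjusted p = 0.0638, edgeR), and its partner *MAGOH* 0.51 ± 0.23 (adjusted p = 0.149, edgeR).

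The HSP70 list held the largest fold change of a called gene. *HSPA6* (chromosome 3, 9546099 to 9549003, plus strand), a stress-induced chaperone whose entry overlaps ENSBGRG00000001772 on the same strand, ran from 3.72 to 29.3 CPM in Y-A (median 9.99), 4.67 to 12.7 in Y-E (median 5.94) and 2.33 to 7.81 in Y-P (median 3.98). The stages overlap, and the Y-A libraries differ among themselves more than the stages do, with 29.3 in replicate 5 and 19.7 in replicate 1. Its log2 fold change in Y-P vs. Y-A was −1.57 ± 0.45 (adjusted p = 0.0460, edgeR), a call lost in 13 of the 18 fits without 1 library (adjusted p of up to 0.131). *HSPA1L* and *HSPA2* gave −0.21 ± 0.36 and −0.06 ± 0.14. ENSBGRG00000017349, a protein-coding entry outside the role lists, shares the orthology group of these genes. It ran from 118 to 364 CPM in Y-A, 132 to 379 in Y-E and 110 to 177 in Y-P, and was not called.

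The 2 miRNA entries were lower in Y-P in both comparisons, and both lie inside *DDX5* on its strand. *DDX5* spans 16583103 to 16591690 on the plus strand of chromosome 19, ENSBGRG00000010782 spans 16589726 to 16589809 and ENSBGRG00000010798 spans 16590521 to 16590604, 84 bases each. Positions of the *DDX5* exons were not used here, and reads of these entries and of *DDX5* RNA cannot be told apart. ENSBGRG00000010798 ran from 17.9 to 29.6 CPM in Y-A, 17.7 to 24.1 in Y-E and 5.68 to 18.4 in Y-P, with log2 fold changes of −0.99 ± 0.23 (adjusted p = 0.0180, edgeR) and −0.90 ± 0.22 (adjusted p = 0.0123, edgeR). ENSBGRG00000010782 ran from 22.9 to 44.5, 22.7 to 32.4 and 8.64 to 25.2 CPM, with −0.97 ± 0.23 (adjusted p = 0.0198, edgeR) and −0.81 ± 0.23 (adjusted p = 0.0229, edgeR), and its calls were each lost without Y-P replicate 2. Neither was called without the deeper Y-P set (log2 −0.76 and −0.70 against Y-A, −0.68 and −0.53 against Y-E).

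Set against *DDX5* in the same library, the counts of the 2 entries together came to 2.99% to 3.23% of the *DDX5* counts in Y-A (mean 3.09% ± 0.10, SD, n = 6) and to 2.83% to 3.32% in Y-E (3.08% ± 0.22, SD, n = 6). In Y-P they came to 0.620% to 2.62% (1.44% ± 0.78, SD, n = 6), below every library of the other stages. The *DDX5* level itself ran from 1363 to 2294 CPM in Y-A and 1663 to 2416 in Y-P. In Y-A replicate 5 both *DDX5* and the entries were at their highest in that stage, whereas in Y-P replicates 5 and 6 *DDX5* was at its highest and the entries were at their lowest. This ratio was chosen after its values were seen and was not tested.

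**Figure D4:**
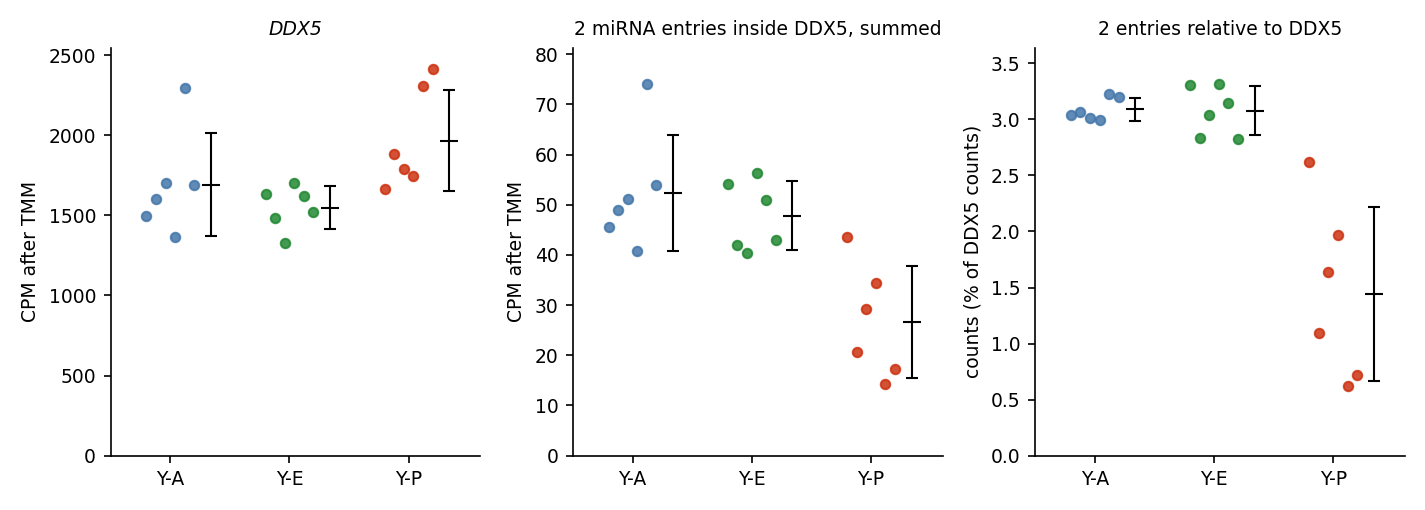
CPM after TMM normalization of *DDX5* (left), summed CPM of the 2 miRNA entries inside it (middle) and their counts in percent of the *DDX5* counts of the same library (right), for each library (points) with the mean and SD of the stage (black bars). The 12 libraries of Y-A and Y-E lie between 2.83% and 3.32%, and those of Y-P between 0.620% and 2.62%.

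Of the 75 members outside the role lists, 1 was higher and 2 lower in Y-P vs. Y-A (the 2 being the miRNA entries). Of all genes, 2.22% were higher and 3.61% lower there. In Y-P vs. Y-E 4 of the 75 were higher and 3 lower, against 5.77% and 8.68% of all genes. The median log2 fold change of the 75 was 0.02 in Y-P vs. Y-A and 0.04 in Y-P vs. Y-E. *FHL3* (chromosome 3, 117798818 to 117805947) stands beside *SF3A3* (117810729 to 117837511) and shares its orthology group in the table. It ran from 36.1 to 89.4 CPM in Y-A, 57.5 to 105 in Y-E and 33.6 to 52.0 in Y-P, with a log2 fold change in Y-P vs. Y-E of −0.84 ± 0.21 (adjusted p = 0.0135, edgeR). The higher ones in that comparison were *FAM134B*, an ER-phagy receptor (0.41 ± 0.12), and the entries ENSBGRG00000021591 (0.69 ± 0.19), ENSBGRG00000022922 (0.65 ± 0.19) and ENSBGRG00000001570 (0.32 ± 0.10), which have no symbol. ENSBGRG00000022922 is in the orthology group of *HNRNPA1* and *HNRNPA3*, which holds 11 members, so its reads may be shared with theirs. Their calls were lost in 4, 2, 6 and 10 of the 18 fits, and without the deeper set ENSBGRG00000021591 and ENSBGRG00000022922 gave 0.39 and 0.24. The member called higher only in Y-P vs. Y-A was ENSBGRG00000018735, a pseudogene entry (0.39 ± 0.11, adjusted p = 0.0353, edgeR), lost in 8 of the 18 fits. *ZRSR2*, a relative of the U2AF small subunit, is placed on chromosome Y although the animals are female, so its reads may be shared with a copy elsewhere, and it gave −0.40 ± 0.14 against Y-A (adjusted p = 0.0993, edgeR).

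Splicing genes that the KEGG column does not list were set beside the members, in 4 lists written from general knowledge, of which 71 genes were tested. In Y-E vs. Y-A 0 passed (edgeR, 0.0207% of all genes did). In Y-P vs. Y-A 1 was higher and 3 were lower (5.63%, against 5.83% of all genes). In Y-P vs. Y-E 8 were higher and 6 lower (19.7%, against 14.4% of all genes). None of the 10 minor spliceosome genes and none of the 11 snRNP assembly genes passed. Of 10 splicing kinases, *CDK12* was lower in both comparisons with Y-P (log2 −0.44 ± 0.10 and −0.43 ± 0.10) and *SRPK2*, which phosphorylates SR proteins, in Y-P vs. Y-E (−0.63 ± 0.16). Of 40 other regulators, *KHDRBS1*, known as Sam68, was higher in both (0.59 ± 0.11 in each), *LUC7L3*, a U1-associated protein, was lower in both (−0.76 ± 0.12 and −0.58 ± 0.12), and so was *QKI* (−0.41 ± 0.12 and −0.47 ± 0.12). Against Y-E, *PTBP1* (0.34 ± 0.09) and *SFPQ* (0.31 ± 0.08) were among the 8 higher genes, and *HNRNPUL1* (−0.39 ± 0.09) among the 4 lower ones of this list.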

How the data were processed

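Whole blood poly(A) RNA of 18 libraries was sequenced. The authors deposited 1 table with raw counts and FPKM per gene. Per the methods and processing notes, reads were trimmed with Cutadapt 1.9, aligned with HISAT2 2.2.1 and assembled with StringTie 2.1.6, with ballgown giving FPKM. How the deposited counts were made, and their strand setting, are not given in the sources used here. Library preparation was stranded. The authors' fold change and p-value columns were not used.

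Counts were filtered with filterByExpr and fitted in edgeR 4.0.16 (R 4.3.3, TMM, quasi-likelihood, stage as the term, all 18 libraries), with Benjamini-Hochberg adjustment over 14508 genes and a threshold of 0.05. Errors beside log2 fold changes are standard errors. The naming rule took, per comparison and direction, the 10 called members with the smallest p (or, with fewer than 3 called, the 3 smallest unadjusted p), members past the fold threshold, the member of each role with the highest mean FPKM, and up to 3 called genes per other list and direction. All further named members were added after their values were seen. Members, role lists and rules were chosen with earlier results of these data known. Genes without a symbol are given by identifier or count. The floor was set at 3 counts, which is 0.0620 to 0.0992 CPM by the library totals, before TMM scaling.

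Replicate numbers were read as the cow, which no source used here states. Over all tested genes, same-numbered libraries deviated together (correlation over 0.1) in all 6 pairs of Y-E with Y-A (0.110 to 0.515). They did so in 4 of 6 of Y-P with Y-A (−0.0492 to 0.369) and in 4 of 6 of Y-P with Y-E (−0.0544 to 0.400). Over the members alone these were 4 of 6 (−0.306 to 0.485), 3 of 6 (−0.429 to 0.636) and 3 of 6 (−0.258 to 0.539). Alternatives were DESeq2 1.42.0 and its size factors, library size alone, no hemoglobin genes, no filter, limma 3.58.1 on log2(FPKM + 1) or (FPKM + 0.1), 2 stages only, a replicate block, only role-list members, and each library left out. Chosen after seeing the data were the 2 Y-P depth sets left out and Y-E replicate 6 left out with the block. On simulated data of 14139 genes, 59.4% (Y-P vs. Y-A) and 58.3% (Y-P vs. Y-E) of 2-fold changes were recovered, and 20.2% and 23.6% of 1.5-fold changes. The changed genes were drawn at random from all levels, so these rates do not give the recovery for the members. The study's own library table does not list Y-E replicate 6, which was kept here. Without it, 11 and 31 members were called in the comparisons of Y-P with Y-A and with Y-E, beside 6.06% and 13.7% of all genes. Some items are not reported here.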

Additional observations from a re-analysis of the deposited data

Results flagged for a closer look

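Of 111 groups of 6 libraries over 37 named genes, 7 had 1 library far from the other 5 by Dixon's criterion, which chance meets in about 1 of 20 groups. Values are CPM after TMM normalization. *FHL3* was 89.4 in Y-A replicate 1 and 36.1 to 52.0 in the other Y-A libraries. In the same library *DDX46* was 143 (173 to 187 in the others) and *RBMX* 224 (295 to 316 in the others). In Y-A replicate 5, *DDX39B* was 394 (277 to 293) and ENSBGRG00000010782 was 44.5 (22.9 to 30.4). *HNRNPM* was 426 in Y-E replicate 4 (333 to 364), and *WDR25* was 12.4 in Y-P replicate 5 (7.64 to 9.10).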

How the results depend on the processing

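Y-E vs. Y-A gave 0 calls under every setting run, and no result named above changed direction while called. Of 43 called results on named genes, 6 kept their call in all 30 settings, *PRPF40B* in both comparisons and *SNRNP70*, *SRSF3*, *SRSF5* and *SRSF6* in Y-P vs. Y-E. In Y-P vs. Y-A the 12 calls became 7 with only those 2 stages fitted, 33 with library size alone, 49 and 52 with limma on log2(FPKM + 0.1) and log2(FPKM + 1), 4 without the deeper and 36 without the shallower Y-P libraries, and 5 to 18 without 1 library. The share of all genes called moved too, from 5.83% to 3.45%, 9.19%, 13.3%, 14.6%, 2.02% and 11.6% in that order. With the fold threshold, the 2 became 1 with no filter, library size alone or limma, 1 and 5 in the depth splits and 0 to 4 without 1 library. The median of 0.11 became 0.26 with library size alone, 0.28 and 0.26 with limma, −0.063 and 0.21 in the depth splits, and 0.05 to 0.14 without 1 library. In Y-P vs. Y-E the 31 calls became 56, 63, 64, 14 and 52 under the same settings (library size, limma with 0.1 and 1, without the deeper, without the shallower) and 18 to 41 without 1 library, and the share of all genes from 14.4% to 17.6%, 20.2%, 21.2%, 7.34% and 17.4%. With the fold threshold, the 1 became 2 with DESeq2's test, library size alone or limma, 0 and 7 in the depth splits and 0 to 4 without 1 library. The median of 0.15 became 0.30 with library size alone, 0.31 and 0.30 with limma, −0.0062 and 0.28 in the depth splits, and 0.09 to 0.19 without 1 library. The cause of these shifts was not tested.

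With the replicate block, 12 and 37 members were called (6.74% and 20.8%, against 8.84% and 17.98% of all genes), and 4 and 3 with the fold threshold. It ended the calls of *SF3A3* and *PPIH* in Y-P vs. Y-E, added 8 there and changed none in Y-P vs. Y-A. At this depth and 6 libraries a stage, changes near 1.5-fold were mostly missed on simulated data. Few genes were changed there, drawn at random from all levels. The members had a higher median of mean FPKM (24.6, against 7.78 for all genes tested). Their median coefficient of variation within a stage was lower (17.5%, against 24.0%). The simulated rates therefore do not give the recovery for the members.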
